A study of Mus musculus with 24 samples.

Results

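The subunits of oxidative phosphorylation were followed in mouse retinal organoids (MROs) from D20 to D30. Genes were taken by symbol from the protein-coding mouse genes of the count files. The rule kept symbols of the Nduf a, b, c, s and v families, Sdha to Sdhd, and all symbols that begin with Uqcr, Cox4 to Cox8, Atp5 or mt-. It found 97 genes among 46603 annotated genes, of which 84 lie in the nuclear genome and 13 in the mitochondrial genome. The nuclear genes comprised 7 core and 28 accessory subunits of complex I, 4 of complex II, 8 of complex III, 20 of complex IV and 17 of complex V. Despite its symbol, Ndufa4 was placed with complex IV, where its protein is now known to belong. Ndufa4l2 was placed there as its relative.

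MROs are small aggregates of retinal tissue that form in culture from mouse pluripotent stem cells. All organoids came from the wildtype embryonic stem cell line E14Tg2a, carry the genotype label control, and per the labels were given only water as solvent. One RNA library was made per organoid, 6 per timepoint (D20, D22, D25, D30), and all came from 1 experiment, so that the spread is that between organoids of 1 culture. The number of reads assigned to features lay between 13634846 and 15793703 in D20 organoids and between 13942695 and 15789570 in D22 organoids. For D25 it lay between 14524620 and 18078956, and for D30 between 15814895 and 19477108.

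Oxidative phosphorylation takes electrons from NADH and succinate through complexes I to IV of the inner mitochondrial membrane to oxygen, and complex V, the ATP synthase, uses the proton gradient so built to make ATP. Its subunits are encoded in both genomes, so that nuclear and mitochondrial genes have to be expressed together. Retinal photoreceptors are rich in mitochondria and are among the most energy-demanding cells known, while proliferating progenitors rely more on glycolysis.

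The retinal label was checked with marker genes, given as sums of normalized CPM (CPM, counts brought to a common library size with TMM). All 10 photoreceptor markers were detected, and their sum was 1081, 1812 and 2168 at D20 (lowest, median and highest of 6 organoids), 2444, 3215 and 5721 at D22, 7158, 7465 and 8536 at D25, and 6337, 9461 and 13000 at D30. Per kilobase, Crx was the most abundant of the list at D20 and Sag at D30, and none of the 10 was at 0. The 7 progenitor and proliferation markers, led per kilobase by Hes6 at D20 and Pcna at D30, had a median sum of 1381 (D20), 759.5 (D22), 571.1 (D25) and 357.2 (D30). In bulk organoids, a change in the number of cells of a type and a change in RNA per cell cannot be told apart.

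All 37 annotated features of the mitochondrial genome were listed at 0 in all 24 organoids. These are 13 protein-coding genes, 2 rRNA genes and 22 tRNA genes. The 13 protein-coding genes are the complex I genes mt-Nd1, mt-Nd2, mt-Nd3, mt-Nd4, mt-Nd4l, mt-Nd5 and mt-Nd6, the complex III gene mt-Cytb, the complex IV genes mt-Co1, mt-Co2 and mt-Co3, and the complex V genes mt-Atp6 and mt-Atp8. Every respiring cell uses these genes, so the zeros are given only as listed values, and no level, ratio or test of mitochondrial against nuclear genes was made. The assembled loci of the files carry no position, so it could not be seen whether reads of the mitochondrial genome were counted under another name.

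Copies of mitochondrial sequence in the nuclear genome did carry counts. Stretches of 75 bases from the mitochondrial genes occurred exactly in transcripts of 12 annotated pseudogenes, and such stretches covered 99.86% of mt-Co3, 99.51% of mt-Atp6 and mt-Co2, 98.65% of mt-Nd4l and 97.81% of mt-Nd3. They covered 61.5% of mt-Nd4, 39.84% of mt-Co1, 5.71% of mt-Nd2 and 1.66% of mt-Nd5. No such stretch was found in mt-Cytb, mt-Nd1, mt-Nd6 and mt-Atp8, which are listed at 0 like the others. The pseudogene Gm28438 on chromosome 1, which shares 268 stretches with mt-Nd3, had raw counts of 105, 205 and 308 at D20 (lowest, median, highest) and 152, 216 and 243 at D30. Gm13340 on chromosome 2, which shares 220 stretches with mt-Co1, had 55, 70 and 84 raw counts at D20 and 76, 115 and 189 at D30. Reads with several places in the genome were not counted. The values overlapped between the timepoints for both pseudogenes, and no level of a mitochondrial gene was taken from them.

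Of the 84 nuclear genes, all but Cox7b2 and Cox8c had counts. Together they took 0.582%, 0.664% and 0.726% of counted reads at D20 (lowest, median and highest organoid), 0.618%, 0.678% and 0.732% at D22, 0.728%, 0.828% and 0.899% at D25, and 0.738%, 0.803% and 0.881% at D30. Every organoid at D30 lay above every organoid at D20, while D25 and D30 overlapped over most of their range. On the scale of normalized CPM, the D20 sum was 6535 ± 501 and the D22 sum 6784 ± 518 (mean ± SD of 6 organoids), followed by 8272 ± 548 for D25 and 8491 ± 536 for D30. No test was made of these sums, since the genes were chosen with results of these data known.

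The summed levels of the complexes moved by different amounts, and no difference between complexes was tested. In normalized CPM, the mean of the complex I core sum was 1.51 times as high at D30 as at D20, and that of complex II 1.5 times. Complex V reached 1.32 times, the complex I accessory subunits 1.302 times and complex IV 1.22 times. In complex II the rise lay mainly in Sdha, with a mean of 44.0 normalized CPM per kilobase at D20 and 80.3 at D30. Sdhb, Sdhc and Sdhd had 20.4, 15.85 and 53.7 at D20 and 25.9, 18.8 and 54.1 at D30. The sum of complex III reached 1.116 times, with 662, 731 and 836 normalized CPM at D20 (lowest, median, highest) and 741, 817 and 898 at D30. Of the 8 genes of complex III, 7 had a log2 fold change above 0. The 1 below 0 was Uqcrh, an abundant gene with a mean of 244 per kilobase at D20 and 205 at D30. The D20 and D30 organoids overlapped for complexes III and IV and did not overlap for complexes I, II and V. As percent of counted reads, the complex I accessory subunits overlapped as well. The ratios of D30 to D20 were smaller on that scale, at 1.413 for the complex I core, 1.398 for complex II and 1.23 for complex V. They were 1.217 for the complex I accessory subunits, 1.143 for complex IV and 1.044 for complex III. The order was another by the median log2 fold change of single tested genes between D20 and D30. This median was 0.45 for the complex I core, 0.44 for complex IV and 0.40 for the complex I accessory subunits. For complexes III, V and II it was 0.36, 0.33 and 0.30.

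**Figure D1:**
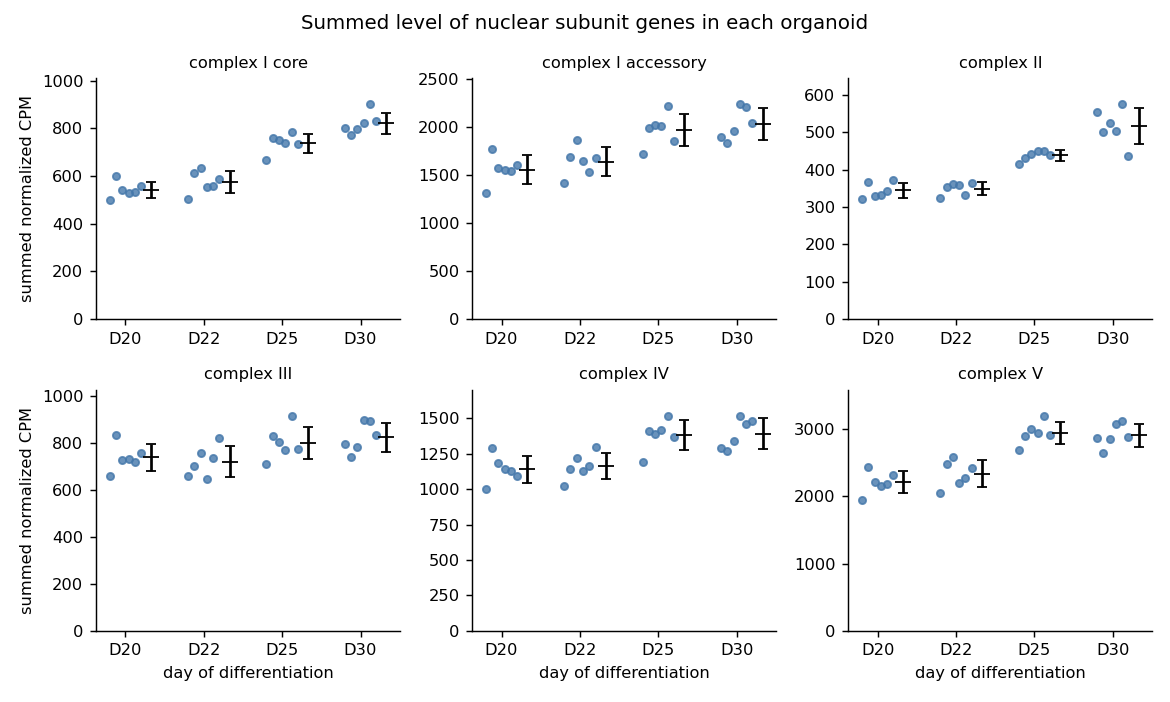
Summed normalized CPM of the nuclear subunit genes of each complex (vertical axis, from 0) in each of 6 organoids per timepoint (horizontal axis), with each point 1 organoid and the bar beside them the mean and SD. The sum of the 7 complex I core genes lies between 499 and 598 at D20 and between 770 and 901 at D30, while the complex III sums overlap.

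Levels of single genes were compared with each other only per kilobase of joined exons. All annotated exons of a gene were joined, so this length can exceed that of the transcript present, and the places depend on it. By mean normalized CPM per kilobase at D20, Uqcrh, the hinge protein of complex III, was first with 244, followed by Atp5k with 228 and Uqcrb with 215. At D30, Uqcrb had 259 ± 15.5 (SD, n = 6), Atp5k 247 ± 70.5 and Cox6b1 243 ± 29.9, and these neighbours did not differ beyond their spread. Of the 75-base stretches of Uqcrb, 16.73% recur in 3 pseudogenes. Cox4i2 stood at place 6 of the 84 genes at D20 with 140 and at place 51 at D30 with 29.0. Ndufa4 moved the other way, from place 54 with 23.4 to place 26 with 63.9. In these values the median gene of the complex I core had 17.3 at D20 and 25.5 at D30, and that of the complex I accessory subunits 31.6 and 43.2, as descriptions without a test.

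Which timepoints carried the change was asked with edgeR's quasi-likelihood test over the 46949 features whose base mean reached 10, with p adjusted over those features by the Benjamini-Hochberg method and a threshold of 0.01. Of the 84 nuclear genes, 80 were tested. The 4 below the limit were Cox6a2, Cox7b2, Cox8b and Cox8c.

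Between D20 and D22, no nuclear subunit gene passed the threshold. At an unadjusted p under 0.05, edgeR had 9 higher and 5 lower, beside 1466 higher and 2110 lower of 13263 tested protein-coding genes. DESeq2 called 1 gene at its adjusted threshold, Cox7a2l, lower. The background at the adjusted threshold was 1.62% of all tested features higher and 0.285% lower, and among tested protein-coding genes 2.89% higher and 0.912% lower. The median log2 fold change of the 80 genes was 0.04, beside −0.06 for tested protein-coding genes. Without D22 replicate 6, 1 gene was called lower.

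Between D22 and D25, 18 nuclear subunit genes rose and 1 fell. Among the 18 were Ndufv1 of the complex I core, Ndufa9, Ndufb9, Ndufb11 and Ndufs5 of its accessory subunits, Sdha and Sdhb of complex II, Uqcrc1 and Uqcrq of complex III, Cox4i1, Cox6a1, Cox6b1, Cox8a and Ndufa4 of complex IV, and Atp5a1, Atp5b and Atp5o of complex V. The gene that fell was Cox4i2. Of all tested features, 3.08% were called higher and 2.19% lower, and of tested protein-coding genes 8.66% and 3.02%. The median log2 fold change of the 80 genes was 0.29, with 71 of 80 above 0, beside 0.13 for tested protein-coding genes. With annotated genes only, the split was 14 higher and 4 lower, the latter being Cox4i2, Cox6b2, Cox7a2l and Ndufa4l2, beside 7.40% of protein-coding genes higher and 6.26% lower in that setting. The count of rises was 10 without D22 replicate 1 and 11 without D22 replicate 5 or D25 replicate 5. The fall of Cox4i2 was not called in 6 of the fits that each left out 1 organoid (D22 replicate 1, 4 or 6, or D25 replicate 1, 4 or 6). It was also lost with the replicate block and with the compared timepoints only, where Ndufa4l2 was the 1 gene called lower.

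Between D25 and D30, 1 nuclear subunit gene rose and 1 fell. Sdha, the flavoprotein of succinate dehydrogenase, had 252, 263 and 281 normalized CPM at D25 (lowest, median, highest) and 277, 335 and 369 at D30. Only the lowest D30 organoid lay within the D25 range. The log2 fold change was 0.32 (SE 0.07, edgeR adjusted p = 0.00567), and the call was lost when D25 replicate 1, 2, 5 or 6, or D30 replicate 1, 3 or 5 was left out. It was also lost without a filter, with filterByExpr, with the compared timepoints only and with the replicate block. Ndufa4l2 had 10.01, 13.1 and 21.0 at D25 and 1.89, 3.82 and 10.4 at D30, with an overlap of the highest D30 and the lowest D25 value, and fell by 1.5 on the log2 scale (SE 0.29, edgeR adjusted p = 0.00108). The background was 1.76% of all tested features higher and 1.75% lower, and 5.35% and 3.03% of tested protein-coding genes. The median of the 80 genes was 0.04, beside 0.07 for tested protein-coding genes.

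Over the whole interval from D20 to D30, 38 of the 80 tested nuclear subunit genes rose and 5 fell, while 37 did not pass. In this comparison 13.9% of all tested features were called higher and 13% lower, and 28.8% and 16.5% of tested protein-coding genes. The median log2 fold change was 0.36 for the 80 genes and 0.15 for tested protein-coding genes, a distance of 0.21. With annotated genes only, both medians were lower, at 0.28 and 0.06, and the distance was 0.22. The comparisons share organoids, so their values stand side by side and were not set against each other in a test.

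**Figure D2:**
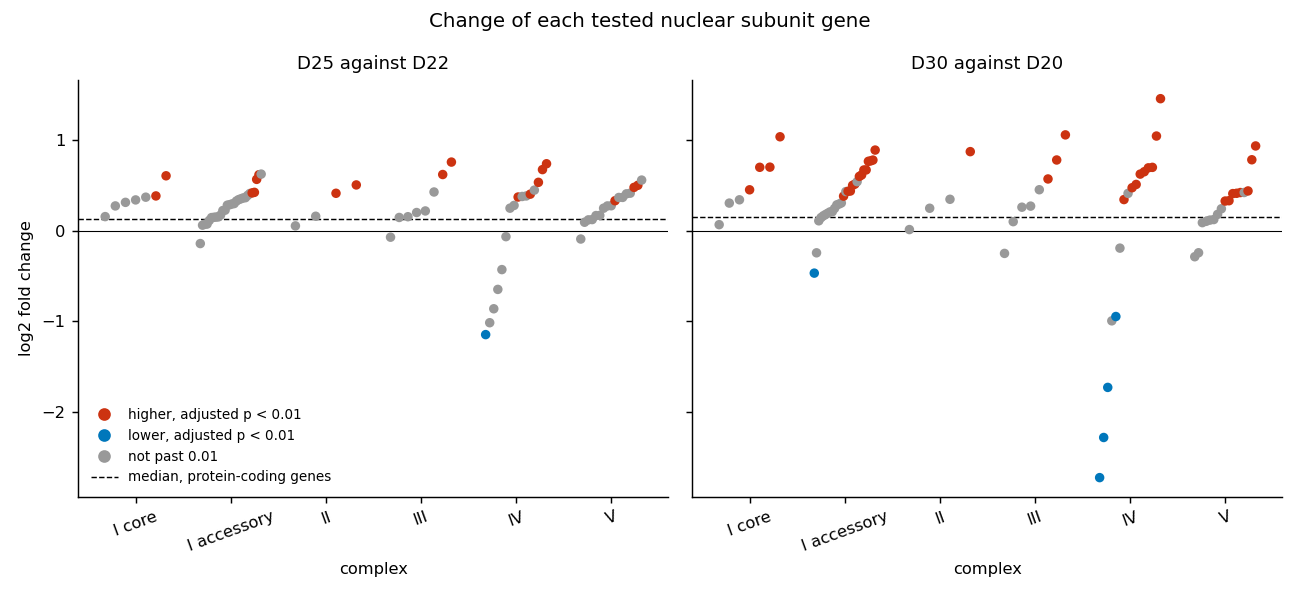
Log2 fold change (vertical axis) of each of the 80 tested nuclear subunit genes for D25 against D22 (left) and D30 against D20 (right), by complex (horizontal axis), sorted within a complex. Red points passed the threshold as higher, blue points as lower, grey points did not pass, and the dashed line is the median of tested protein-coding genes; 4 of the 5 blue points at D30 against D20 belong to complex IV.

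In complex I, 17 genes rose and 1 fell between D20 and D30, beside 28.8% of tested protein-coding genes higher and 16.5% lower. Among the 7 core subunits, which carry the flavin, the iron-sulfur clusters and the quinone site, those that rose included Ndufv1, Ndufs1 and Ndufs3. Ndufv1, which holds the flavin where NADH is oxidised, had 59.8, 64.6 and 70.1 normalized CPM at D20 (lowest, median, highest), 66.0, 74.3 and 91.5 at D22, 105, 119 and 124 at D25, and 116, 130 and 165 at D30. Every organoid at D25 and D30 was above every organoid at D20 and D22. The log2 fold change of Ndufv1 from D20 to D30 was 1.03 (SE 0.09, edgeR adjusted p = 3.33e-10). Ndufs1, the large iron-sulfur subunit, had 116, 119 and 147 normalized CPM at D20 and 190, 208 and 218 at D30, with no overlap. The log2 fold change of Ndufs1 was 0.70 (SE 0.09, edgeR adjusted p = 1.97e-07). Ndufs7 did not pass, and its value changed sign with annotated genes only.

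Of the 28 accessory subunits of complex I, 13 rose and 1 fell, beside the same background of 28.8% higher and 16.5% lower. Ndufb9 and Ndufb8, both of the membrane arm, had the largest rises. Ndufb9 had 56.9, 68.3 and 72.3 normalized CPM at D20 (lowest, median, highest) and 103, 119 and 147 at D30, and the groups did not overlap. Ndufb9 had a log2 fold change of 0.89 (SE 0.11, edgeR adjusted p = 8.34e-08). Ndufb8 had 48.0, 67.4 and 73.6 at D20 and 90.3, 115 and 130 at D30, again without overlap, with a log2 fold change of 0.78 (SE 0.12, edgeR adjusted p = 3.29e-06). Of the 3211 stretches of 75 bases in Ndufb8, 60 (1.87%) recur in transcripts of Gm20538, and of the 956 in Ndufb9, 128 (13.39%) recur in those of Gm49356, so the level of Ndufb9 is less certain. Ndufa6 was the accessory subunit that fell. It had 59.6, 70.1 and 79.7 normalized CPM at D20 and 42.4, 50.7 and 54.1 at D30, every D30 organoid lying below every D20 organoid. It fell by 0.47 on the log2 scale (SE 0.11, edgeR adjusted p = 0.00137).

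Complex II, which links the citric acid cycle to the respiratory chain, had 1 gene past the threshold out of 4. This share is near the 28.8% of tested protein-coding genes called higher between D20 and D30. Sdha had 166, 178 and 208 normalized CPM at D20 (lowest, median, highest), 185, 200 and 215 at D22, 252, 263 and 281 at D25, and 277, 335 and 369 at D30. D25 and D30 organoids all lay above those of D20 and D22. The log2 fold change from D20 to D30 was 0.87 (SE 0.08, edgeR adjusted p = 1.19e-10). Sdhb, Sdhc and Sdhd had log2 fold changes of 0.34, 0.25 and 0.01 and did not pass, and that of Sdhd changed sign with annotated genes only. With DESeq2, and with its size factors in edgeR, Sdhb and Sdhc were called higher too, 3 of 4 in all. Of tested protein-coding genes, these settings called 33.4% and 31.8% higher. The count was 2 without D20 replicate 2, D22 replicate 1 or D30 replicate 3 or 6.

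In complex III, 3 of 8 genes rose, Uqcrq, Uqcrc1 and Uqcr11. With so few genes, this share is close to the 28.8% of tested protein-coding genes called higher. With DESeq2, 6 of 8 were called higher, with Uqcr10, Uqcrb and Uqcrc2 in addition, and 33.4% of protein-coding genes. Uqcrq, a small subunit that binds near cytochrome b, had 19.8, 20.6 and 21.4 normalized CPM at D20 (lowest, median, highest) and 35.4, 42.1 and 55.6 at D30. These groups did not overlap, and the log2 fold change was 1.05 (SE 0.14, edgeR adjusted p = 5.57e-07). Uqcrc1, a core protein, had 36.6, 47.0 and 52.1 at D20 and 64.1, 75.5 and 100 at D30. Its groups were also apart, with a log2 fold change of 0.78 (SE 0.12, edgeR adjusted p = 2.85e-06). Uqcrh had the opposite sign, −0.25, and did not pass (edgeR adjusted p = 0.0609).

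In complex V, 8 of 17 genes rose and 9 did not pass, beside 28.8% of tested protein-coding genes higher. At an unadjusted p under 0.05, edgeR had 9 higher and 1 lower, beside 5266 higher and 3161 lower of 13263 tested protein-coding genes. DESeq2 called no gene lower at its adjusted threshold. Without a filter, 5 genes were called higher, and Atp5g3, Atp5h and Atp5j2 were not. With annotated genes only, Atp5e was called lower, and the unpassed values of Atp5d and Atp5c1 changed sign. Atp5b, the catalytic beta subunit, had 372, 428 and 486 normalized CPM at D20 (lowest, median, highest), 416, 465 and 560 at D22, 628, 676 and 703 at D25, and 672, 737 and 801 at D30. D25 and D30 organoids were all above those of D20 and D22. The log2 fold change from D20 to D30 was 0.78 (SE 0.07, edgeR adjusted p = 9.24e-10). Atp5a1, the alpha subunit that alternates with it in the head of the enzyme, had a log2 fold change of 0.42 (SE 0.07, edgeR adjusted p = 6.14e-06).

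The c ring of the ATP synthase is encoded by 3 nuclear genes whose mature proteins are the same. Atp5g1 had 5.26, 9.05 and 14.2 normalized CPM at D20 (lowest, median, highest) and 14.5, 16.4 and 22.7 at D30, every D30 organoid above every D20 organoid. Its log2 fold change was 0.93 (SE 0.19, edgeR adjusted p = 0.000198). Atp5g3 had 44.6, 52.8 and 63.9 at D20 and 58.0, 67.0 and 76.4 at D30, which overlap. Its log2 fold change of 0.33 (SE 0.10, edgeR adjusted p = 0.0081) passed, and the call was lost with annotated genes only and under 4 other settings. Atp5g2 had 0.24 (SE 0.16) and did not pass. Per kilobase, Atp5g3 held a median of 65.1% of the 3 genes at D20 and 65.3% at D30. These shares depend on the joined exon lengths, 4912 bases for Atp5g1, 1675 for Atp5g2 and 2181 for Atp5g3. Of the 75-base stretches of Atp5g2, 35.82% recur in transcripts of 3 other genes, 2 of them pseudogenes, so its level is uncertain.

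Complex IV, cytochrome c oxidase, had changes in both directions. Of its 16 tested genes, 9 rose and 4 fell between D20 and D30, beside 28.8% of tested protein-coding genes higher and 16.5% lower. The 9 were Cox4i1, Cox5b, Cox6a1, Cox6b1, Cox6c, Cox7a2, Cox7b, Cox8a and Ndufa4, the isoforms used in most tissues. The 4 were Ndufa4l2, Cox4i2, Cox6b2 and Cox7a2l. Cox4i2 is the isoform best known from lung and Cox6b2 that from testis, Ndufa4l2 is known as a gene induced in low oxygen, and Cox7a2l takes part in joining complexes III and IV into supercomplexes. All 5 falls among the nuclear genes, including Ndufa6, were called by DESeq2 and under every other setting of normalization, filter and samples for this comparison, and also without each organoid in turn.

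Cox4i1 and Cox4i2 encode alternative forms of the regulatory subunit 4. Cox4i1 had 115, 142 and 159 normalized CPM at D20 (lowest, median, highest), 135, 147 and 162 at D22, 166, 188 and 220 at D25, and 158, 174 and 197 at D30. Cox4i2 had 75.5, 110 and 147 at D20, 35.9, 68.4 and 135 at D22, 20.1, 29.1 and 56.3 at D25, and 13.9, 20.3 and 39.4 at D30. For Cox4i2 all D30 organoids were below all D20 organoids, while Cox4i1 overlapped by its lowest D30 value. The log2 fold changes were 0.34 for Cox4i1 (SE 0.08, edgeR adjusted p = 0.00172) and −2.28 for Cox4i2 (SE 0.29, edgeR adjusted p = 2.02e-07). Per kilobase, Cox4i2 made up 51.3%, 59.6% and 71.6% of both forms at D20 and 13.7%, 18.2% and 28.2% at D30. The joined exons measure 1550 bases for Cox4i1 and 788 for Cox4i2, so these shares depend on the lengths. Without division by length, Cox4i1 had the higher median at D20, 142 against 110 normalized CPM.

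Ndufa4 is the last-added subunit of complex IV, and Ndufa4l2 is its relative. Ndufa4 had 17.8, 33.8 and 43.1 normalized CPM at D20 (lowest, median, highest), 32.98, 44.8 and 56.0 at D22, 60.1, 74.8 and 81.6 at D25, and 78.3, 86.3 and 107 at D30. Ndufa4l2 had 20.7, 33.1 and 45.7 at D20, 17.9, 29.5 and 39.5 at D22, 10.01, 13.1 and 21.0 at D25, and 1.89, 3.82 and 10.4 at D30. Both genes were apart between D20 and D30, in opposite directions. Ndufa4 had a log2 fold change of 1.45 (SE 0.15, edgeR adjusted p = 3.73e-09), and Ndufa4l2 one of −2.72 (SE 0.30, edgeR adjusted p = 1.53e-08). The share of Ndufa4l2 in the pair, per kilobase, had a median of 55.4% (D20), 45.4% (D22), 20.0% (D25) and 5.47% (D30). It depends on the joined exon lengths, 1381 bases for Ndufa4 and 1095 for Ndufa4l2.

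Cox6b1 and Cox6b2 encode forms of a subunit on the outer face of the enzyme. Cox6b1 had 95.4, 133 and 142 normalized CPM at D20 (lowest, median, highest) and 147, 174 and 198 at D30. Cox6b2 had 23.7, 28.9 and 34.5 at D20 and 5.33, 8.91 and 13.1 at D30. Neither gene overlapped between these days. The log2 fold changes were 0.47 for Cox6b1 (SE 0.10, edgeR adjusted p = 0.000276) and −1.73 for Cox6b2 (SE 0.24, edgeR adjusted p = 1.03e-06).

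Cox7a2l had 88.4, 98.8 and 110 normalized CPM at D20 (lowest, median, highest), 58.1, 69.5 and 99.1 at D22, 47.5, 52.3 and 65.4 at D25, and 41.5, 53.8 and 59.7 at D30. D25 and D30 organoids were all below those of D20. Of its 75-base stretches, 10.42% recur in the pseudogene Gm6969. Between D20 and D30 it fell by 0.95 on the log2 scale (SE 0.12, edgeR adjusted p = 1.33e-07). Of its relatives, Cox7a2 rose with a log2 fold change of 0.51 (SE 0.11, edgeR adjusted p = 0.000271), from 35.5, 53.9 and 60.0 to 72.4, 73.6 and 80.5 normalized CPM. Cox7a1, the heart and muscle form, had a median of 1.73 at D20 and 1.04 at D30, and its log2 fold change of −0.99 (SE 0.50) did not pass (edgeR adjusted p = 0.119).

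The remaining isoforms known from heart, muscle or testis were at or near 0. Cox7b2 and Cox8c had no count in any of the 24 organoids, and 3 counts, the limit that a count of 0 allows, were worth at most 0.22 CPM. Cox6a2 had 59 counts in all, found in 10 organoids, and Cox8b 49 counts in 9 organoids. The highest D30 organoid had 0.927 normalized CPM of Cox6a2 and 0.856 of Cox8b, and the highest D20 organoid 0.206 and 0.134. The partners of these isoforms in most tissues were measured well above such values. Cox6a1 had a log2 fold change of 1.04 (SE 0.15, edgeR adjusted p = 2.67e-06), Cox8a of 0.69 (SE 0.12, edgeR adjusted p = 3.23e-05) and Cox7b of 0.65 (SE 0.11, edgeR adjusted p = 1.5e-05).

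**Figure D3:**
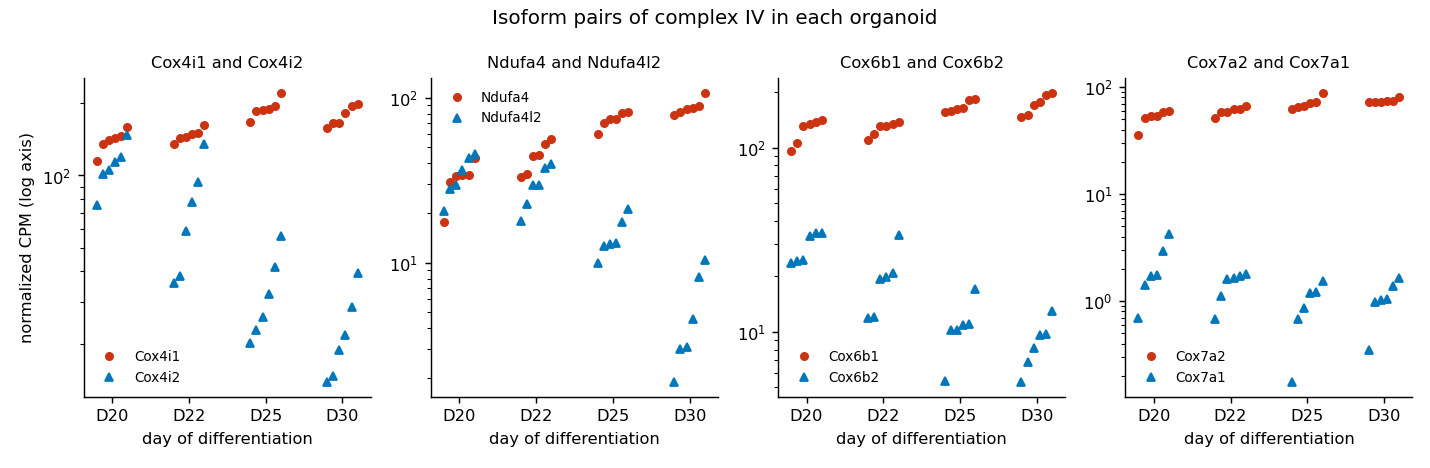
Normalized CPM (vertical axis, logarithmic) of 4 isoform pairs of complex IV in each of 6 organoids per timepoint (horizontal axis), with points sorted by value within a timepoint and the organoid without a Cox7a1 count drawn at the foot of its panel. Ndufa4 has medians of 33.8 at D20 and 86.3 at D30, and Ndufa4l2 medians of 33.1 and 3.82, with no overlap between these days for either gene.

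Genes known to respond to low oxygen stand beside Ndufa4l2 and Cox4i2, both of which are known to be induced by it. Of the 10 listed, 5 fell between D20 and D30 (Vegfa, Bnip3, Slc2a1, Pdk1 and Ero1l) and 1 rose (Ndrg1). The background in this comparison was 16.5% of tested protein-coding genes lower and 28.8% higher. The call of Ero1l was lost without D20 replicate 1 or D30 replicate 3, 5 or 6. The sum of the 10 was 1998, 2160 and 2669 normalized CPM at D20 (lowest, median, highest) and 1053, 1293 and 1750 at D30, without overlap. Vegfa was the most abundant of the list per kilobase at both. Between D20 and D22, 2 of the 10 rose, Ndrg1 and Adm, beside 2.89% of tested protein-coding genes. At D22 the sum was 1784, 2193 and 3021, which overlaps the D20 range. Pdk1, which restrains pyruvate entry into mitochondria, had 199, 213 and 267 at D20 and 44.8, 94.9 and 139 at D30. It fell by 1.21 on the log2 scale (SE 0.20, edgeR adjusted p = 1.07e-05). Ndrg1 had a log2 fold change of 0.34 (SE 0.10, edgeR adjusted p = 0.00944), and this call was lost with annotated genes only, with the compared timepoints only and in 15 of the 24 fits that left out 1 organoid, D20 replicates 1 to 6 among them. The part of oxygen in the isoform values was not tested.

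Promoter windows were examined because many nuclear subunit genes moved together and because NRF1, ETS factors such as GABP, ERR and YY1 are known regulators of such genes. RefSeq windows of build GRCm38.p6, from 250 bases before to 50 after the start, matched 66 of the 84 nuclear genes. On either strand, the NRF1 letters GCGCATGC were found in 15.15% of these 66 and in 3.05% of all 27025 genes in the table, and the ETS letters CCGGAAG in 24.24% and 9.93%. The YY1 letters AAGATGGCG were found in 10.61% and 1.64%, and the ERR letters TCAAGGTCA in 3.03% and 0.47%. At least 1 of the 4 was present in 13.98% of all genes in the table and in 42.42% of the 66. Among the latter it was present in 13 of the 29 matched genes that rose from D20 to D30 (44.83%), in 14 of the 32 that did not pass (43.75%) and in 1 of the 3 that fell. In Cox6a1 the NRF1 letters occur on both strands and overlap.

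The upstream 250 bases are shown for 4 genes of the minus strand, in the direction of transcription, with the motif letters of either strand in capitals. Cox6b1 (chr7:30626115-30626364) and Cox6b2 (chr7:4753095-4753344) are shown as a pair that moved in opposite directions, Cox6a1 (chr5:115348959-115349208) for its NRF1 and ETS letters, and Atp5g3 (chr2:73911327-73911576) for the ERR letters. Cox6b2 held none of the 4 motifs here. A match is a description of the letters.
Cox6a1: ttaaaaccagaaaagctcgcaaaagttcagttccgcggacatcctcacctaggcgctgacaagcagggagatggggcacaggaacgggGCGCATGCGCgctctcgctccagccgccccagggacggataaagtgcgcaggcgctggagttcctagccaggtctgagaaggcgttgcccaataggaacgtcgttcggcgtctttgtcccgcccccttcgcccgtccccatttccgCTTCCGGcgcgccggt
Cox6b1: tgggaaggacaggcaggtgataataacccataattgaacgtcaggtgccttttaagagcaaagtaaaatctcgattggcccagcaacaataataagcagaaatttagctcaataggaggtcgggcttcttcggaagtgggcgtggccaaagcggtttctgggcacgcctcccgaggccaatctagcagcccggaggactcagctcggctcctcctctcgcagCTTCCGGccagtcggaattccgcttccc
Cox6b2: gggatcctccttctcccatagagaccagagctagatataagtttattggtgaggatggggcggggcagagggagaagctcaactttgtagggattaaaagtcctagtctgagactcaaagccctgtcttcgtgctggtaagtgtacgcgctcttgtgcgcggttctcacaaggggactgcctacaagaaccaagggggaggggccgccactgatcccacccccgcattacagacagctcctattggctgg
Atp5g3: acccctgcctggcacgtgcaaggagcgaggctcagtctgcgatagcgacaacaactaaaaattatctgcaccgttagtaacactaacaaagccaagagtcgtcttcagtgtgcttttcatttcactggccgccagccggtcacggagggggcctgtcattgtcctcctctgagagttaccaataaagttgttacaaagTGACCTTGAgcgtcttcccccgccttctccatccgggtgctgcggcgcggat

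Other genes of mitochondrial respiration were read from lists, each beside the background of 28.8% higher and 16.5% lower for protein-coding genes between D20 and D30. The background of other settings differs, at 26.5% higher and 21.8% lower with annotated genes only, 33.4% and 15.1% with DESeq2, and 21.3% and 10.7% without a filter. Of 6 further components that the name rule does not reach, 3 rose and the other 3 did not pass. At an unadjusted p under 0.05 edgeR had 3 higher and 1 lower, beside 5266 higher and 3161 lower of 13263 tested protein-coding genes. With annotated genes only, 1 of the 6 was called lower. Cyc1, the heme-bearing cytochrome c1 of complex III, had 14.0, 17.6 and 25.9 normalized CPM at D20 (lowest, median, highest) and 29.2, 36.0 and 41.5 at D30, without overlap. Its log2 fold change was 0.93 (SE 0.18, edgeR adjusted p = 0.000134).

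Among the assembly factors, 3 of 17 for complex I rose and 14 did not pass, and 8 of 33 tested for complexes II to V rose and 1 fell. Ndufaf5, a factor for complex I, had a log2 fold change of 0.98 (SE 0.12, edgeR adjusted p = 2.02e-07), with every D30 organoid above every D20 organoid. Uqcc3, a factor for complex III, had 42.2, 49.4 and 57.0 normalized CPM at D20 (lowest, median, highest) and 85.8, 128 and 139 at D30. This is a log2 fold change of 1.28 (SE 0.12, edgeR adjusted p = 8.25e-10). Sco1, which delivers copper to complex IV, fell by 0.51 on the log2 scale (SE 0.12, edgeR adjusted p = 0.00144). With annotated genes only, 1 factor for complex I and 2 for the other complexes were called lower, and the latter were 2 without D20 replicate 5 as well.

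The citric acid cycle list, which also holds genes of the pyruvate dehydrogenase complex, had 13 of 18 genes higher and 1 lower. Its median log2 fold change was 0.40. Pdha1, Dlat and Pdhx of the pyruvate dehydrogenase complex were among the 13. Without a filter, 8 were called higher. Ogdh, of the oxoglutarate dehydrogenase complex, had 38.6, 49.8 and 53.1 normalized CPM at D20 (lowest, median, highest) and 97.1, 108 and 116 at D30. For Ogdh the log2 fold change was 1.16 (SE 0.12, edgeR adjusted p = 2.31e-09). The gene that fell was Idh2, the NADP-dependent isocitrate dehydrogenase of mitochondria, with 85.1, 103 and 121 at D20 and 31.1, 41.2 and 58.2 at D30. It fell by 1.23 on the log2 scale (SE 0.14, edgeR adjusted p = 1.92e-08). Idh3a and Idh3b, of the NAD-dependent enzyme, were among the 13 that rose, with 0.86 and 0.34, and the call of Idh3b was lost under 2 settings.

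In coenzyme Q synthesis, 7 of 13 genes rose and 6 did not pass, and 1 gene of the list was called lower with annotated genes only. Coq10b, which binds coenzyme Q, had a log2 fold change of 1.38 (SE 0.17, edgeR adjusted p = 1.44e-07). In ATP export and the energy shuttle, 6 of 11 tested genes rose and 1 fell. Ckmt1, the ubiquitous mitochondrial creatine kinase, had 4.62, 10.3 and 12.4 normalized CPM at D20 (lowest, median, highest), 10.8, 14.4 and 21.8 at D22, 43.7, 46.4 and 53.5 at D25, and 73.8, 88.8 and 111 at D30. The D25 and D30 organoids lay above all earlier ones and apart from each other. Its log2 fold change of 3.22 (SE 0.19, edgeR adjusted p = 2.73e-14) was the largest of the metabolic genes named by the rule. Slc25a27, a mitochondrial carrier of the brain, fell by 0.42 on the log2 scale (SE 0.11, edgeR adjusted p = 0.00342), with overlapping groups and a call lost with DESeq2, under 3 other settings, and without D20 replicate 1 or D30 replicate 6. Of this list, 2 genes were called lower with annotated genes only, where the background is 21.8% lower.

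The list for mitochondrial DNA maintenance and transcription also holds genes that act on mitochondrial RNA. Of its 31 genes, 1 rose, 6 fell and 24 did not pass, with a median log2 fold change of −0.15. Of tested protein-coding genes 28.8% rose and 16.5% fell. The share of falls was thus near the background, and that of rises was below it. The number called lower was 10 with annotated genes only, a setting that calls 21.8% of protein-coding genes lower. The 6 were Tfam, Twnk, Ssbp1, Pnpt1, Grsf1 and Trmt10c. Twnk, the helicase of mitochondrial DNA, had 34.1, 40.5 and 54.4 normalized CPM at D20 (lowest, median, highest) and 20.4, 22.7 and 29.1 at D30, and it fell by 0.85 on the log2 scale (SE 0.14, edgeR adjusted p = 7.12e-06). Tfam, the factor that packages this DNA and starts its transcription, fell by 0.50 (SE 0.09, edgeR adjusted p = 3.17e-05), from 63.5, 72.4 and 80.4 to 45.6, 50.6 and 57.7 normalized CPM. Both genes were lower in every D30 organoid than in any D20 organoid. Polg2, the accessory subunit of the mitochondrial DNA polymerase, was the 1 that rose, with a median of 15.4 normalized CPM at D20 and 42.5 at D30, and no D30 organoid as low as any D20 organoid. Its log2 fold change was 1.43 (SE 0.13, edgeR adjusted p = 1.42e-10).

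Among 15 tested regulators of mitochondrial biogenesis, 5 rose and 4 fell. With DESeq2 and under 4 other settings 2 fell, as without D20 replicate 3 or 6 or D30 replicate 1, 2 or 4. Ppargc1b, a coactivator of nuclear receptors, had 4.61, 5.30 and 6.05 normalized CPM at D20 (lowest, median, highest), 6.44, 11.7 and 17.0 at D22, 19.4, 21.0 and 25.5 at D25, and 22.7, 34.1 and 37.5 at D30. It was the regulator with the largest rise under the rule, with a log2 fold change of 2.57 (SE 0.18, edgeR adjusted p = 1.48e-12), and already differed between D20 and D22 (1.10, SE 0.18, edgeR adjusted p = 0.000283). Its relative Ppargc1a rose by 1.68 (SE 0.15, edgeR adjusted p = 2.24e-10), from 8.13, 11.2 and 11.9 to 24.6, 33.7 and 43.0 normalized CPM. Pprc1, also of this coactivator family, fell by 0.75 (SE 0.23, edgeR adjusted p = 0.00953), with overlapping groups and a call lost under 6 other settings and in 15 of the 24 fits without 1 organoid. Esrrb, below the base mean limit for naming, had 0, 0.203 and 0.594 normalized CPM at D20 and 7.08, 8.88 and 14.1 at D30, apart from each other. Its D20 values lie around the limit of 3 counts, so no size of its rise is given. Nrf1 and Gabpa, whose binding letters were searched above, and Gabpb1 fell by 0.32, 0.41 and 0.65 on the log2 scale. Their edgeR adjusted p were 0.00752, 0.00029 and 0.000128. The D20 and D30 organoids overlapped for Nrf1 and Gabpa, and the call of Nrf1 was lost with DESeq2, under 4 other settings and in 7 of the 24 fits without 1 organoid. Gabpb2, a relative of Gabpb1, rose by 0.40 (SE 0.09, edgeR adjusted p = 0.00113), with every D30 organoid above every D20 organoid.

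**Figure D4:**
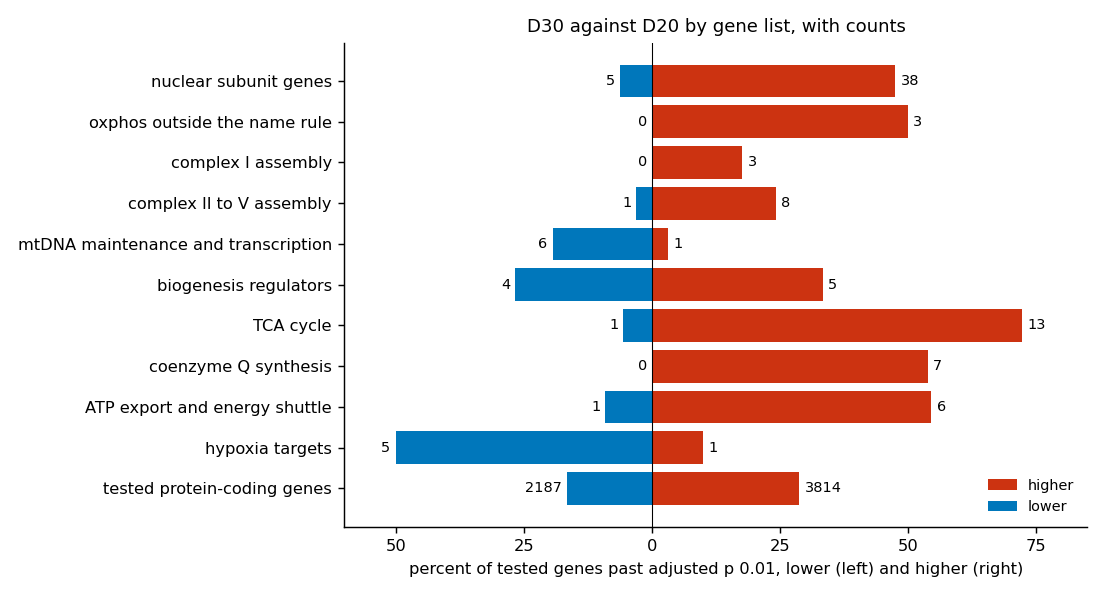
Percent of tested genes called higher (red, to the right) and lower (blue, to the left) at an adjusted p under 0.01 between D20 and D30 for the nuclear subunit genes, the lists around them and all tested protein-coding genes (rows), with the number of genes called at each bar. The citric acid cycle list has 13 of 18 genes higher and 1 lower, and the list for mitochondrial DNA maintenance and transcription 1 of 31 higher and 6 lower. Of tested protein-coding genes, 28.8% are higher and 16.5% lower.

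Markers of other cell types moved over the same days, and their part in the subunit values was not tested. The background between D20 and D30 was again 28.8% of tested protein-coding genes higher and 16.5% lower. Of the photoreceptor markers, 9 of 10 rose between D20 and D30, and of the 7 progenitor and proliferation markers all 7 fell, although the call of Pcna was lost with DESeq2, under 4 other settings and in 5 of the fits without 1 organoid. All 6 bipolar markers rose, with a median sum of 30.0 normalized CPM at D20 and 291.5 at D30 and Prkca as the most abundant per kilobase at D20 and Cabp5 at D30. For the 6 markers of Mueller glia, 5 rose, and the median sum went from 479.7 to 2362, with Apoe as the most abundant per kilobase at both. Of the ganglion cell markers, 1 of 6 tested rose (2 without a filter, or without D30 replicate 3 or 6) and 4 fell. Of those of amacrine and horizontal cells, 2 of 6 tested rose and 1 fell. The median sum of the ganglion cell list was 115.6 at D20 and 192.8 at D30. Nefl, the most abundant of it per kilobase, did not pass and made up 86.01% of the mean sum at D30, and the median log2 fold change of the list was −2.15. For amacrine and horizontal cells the median sum was 75.2 at D20 and 109.3 at D30, led by Gad1 at D30.

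The remaining lists are given with the most abundant gene per kilobase. The pigment epithelium list, led by Dct, had a median sum of 151.7 normalized CPM at D20 and 62.4 at D30. Dct made up 94.45% of the mean sum at D20 and was the 1 of 4 tested genes that fell. The other 3 had positive values that did not pass, and the median log2 fold change of the 4 was 1.28. At D30 against D20, 1 gene of this list was called higher without a filter and without D20 replicate 1. A list of 5 genes of cortex neurons had 72.7 and 304.6, with Neurod6 the most abundant at both, and 1 of 5, Slc17a7, higher. Slc17a7 made up 62.1% of the mean sum at D30, and retinal neurons are known to express both genes. The list of oligodendrocytes and astrocytes had 64.1 and 71.8, led by Olig2, with 20.1 to 166 among the D30 organoids. Of its 6 tested genes, 4 rose and 1 fell (2 without D30 replicate 1 or 6). The number that fell was also 2 with annotated genes only, without a filter and with the replicate block. Striated muscle markers, relevant because Cox6a2, Cox7a1 and Cox8b are muscle forms, had a median sum of 8.36 at D20 and 16.7 at D30, with 1 of 5 tested genes higher and 3 lower. Tnnt2, the gene that rose and the most abundant at D30, made up 69.43% of the mean sum at D30, and the median log2 fold change of the 5 was −1.66.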

How the data were processed

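RNA was taken from 24 single organoids, 6 per timepoint, and ribosomal RNA was depleted before strand-specific library preparation. The authors aligned the reads to GRCm38/mm10 with hisat2, assembled new transcripts with stringtie (version 1.3.3) and counted reads per gene or new transcript with htseq-count (version 0.6.1). The deposited values are raw counts per feature, without normalization. The strand setting of the counting is not given in the sources used here. The summary lines of the files were left out. Of reads counted once each, 35.0% to 45.6% lay outside every feature, 0.432% to 0.596% were ambiguous and 5.29% to 8.93% were not aligned. The 12828991 to 29554121 alignments per organoid with more than 1 place were not counted on a feature. Assembled loci took 12.9% to 16.8% of counted reads.

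Timepoint and replicate number came from the sample labels. Features whose base mean reached 10 were kept, as the methods of the study state, which left 46949 features, 13263 of them protein-coding genes. TMM scaled the counts. All 24 organoids entered 1 edgeR quasi-likelihood model (edgeR 4.0.16, R 4.3.3), p values were adjusted over tested features by the Benjamini-Hochberg method, and the threshold was 0.01. Standard errors were derived from the test statistic. The common biological coefficient of variation was 0.3846, and no 2 libraries of a timepoint agreed within sampling noise. Intervals and floors cover counting error only, since reads carry no molecular identifiers. Names, gene types, exon lengths and coordinates came from GENCODE vM21 (GRCm38), where 46005 of 46603 identifiers matched a symbol. The methods of the study name another release number, so these entries may differ from the annotation used for counting. Repeated stretches of 75 bases were looked for in the vM21 transcripts of other genes.

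The members and lists were chosen with earlier results of these data known, so lists are described by counts and medians beside the background. Named genes are the 13 mitochondrial genes, isoforms of complexes IV and V by name, and for each complex the 2 largest rises and 2 largest falls (for each list 1 and 1) between D20 and D30 past 0.01 with a base mean of at least 100. Other genes named with values were chosen after their values were seen. Markers and lists were read from the same fit. Alternatives were DESeq2 (version 1.42.0), its size factors in edgeR, no filter, filterByExpr, annotated genes only, the replicate block, the compared timepoints only, a threshold of 0.05 and the omission of each organoid.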

Additional observations from a re-analysis of the deposited data

Results flagged for a closer look

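Among 192 sets of 6 organoids looked at for the named genes and the sums, 11 had 1 organoid far from the other 5, where chance alone gives about 1 in 20. Cox6a1 had 28.9 normalized CPM in D22 replicate 3 (others 15.5 to 18.8). Cox7a2 had 35.5 in D20 replicate 1 (others 52.0 to 60.0) and 80.5 in D30 replicate 1 (others 72.4 to 74.3). Cox8a had 40.0 in D20 replicate 2 (others 22.5 to 29.0), and Atp5g2 had 24.6 in D30 replicate 5 (others 19.1 to 21.0).

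Sco1 was low in replicate 4 at D22 (15.0, others 18.9 to 19.9) and at D30 (13.6, others 17.9 to 20.1), which are different organoids. Pdk1 had 267 in D20 replicate 1 (others 199 to 224). Cox6a2 was counted in 1 of 6 organoids at D20 (replicate 3, 0.206) and at D22 (replicate 4, 0.205), and Cox8b in 1 of 6 at D22 (replicate 6, 0.133). None of the complex sums had such an organoid.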

How the results depend on the processing

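For D30 against D20, the 38 rises and 5 falls stayed within 1.5 times under all settings run, and each of the 5 falls remained called under all of them. No called gene changed sign. For D25 against D22, the count of rises was 30 at a threshold of 0.05, and that of falls was 4 there, 2 with DESeq2, 2 without a filter and 4 with annotated genes only. For D22 against D20, 1 gene was higher with annotated genes only, 1 lower at 0.05 and 1 lower with DESeq2. For D30 against D25, the rises were 2 at 0.05, with DESeq2 and with its size factors in edgeR, and 0 (Sdha lost) without a filter, with filterByExpr and with the compared timepoints only. The cause was not tested.

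Same-numbered organoids did not deviate together (median correlations from −0.032 to 0.036), so numbers only name organoids. With the replicate block, the counts higher and lower were 0 and 0 for D22 against D20, 22 and 0 (D25 against D22), 0 and 2 (D30 against D25), and 40 and 5 (D30 against D20).

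Without 1 organoid, the counts ranged from 0 to 1 lower for D22 against D20, from 10 to 21 higher and 0 to 4 lower in the D22 to D25 step, from 0 to 2 higher in the D25 to D30 step, and from 34 to 42 higher over the whole interval. The median of the subunits ranged from −0.01 to 0.09, 0.26 to 0.35, 0.00 to 0.08 and 0.34 to 0.41 in these 4 comparisons. The D30 to D20 ratio of the nuclear share of reads was 1.21 over all counted reads and 1.24 over reads on annotated genes. Annotated genes only shifted the protein-coding genes by −0.09 between D20 and D30. Settings that concern mitochondrial genes were not run, since all are listed at 0.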
